A study of Mus musculus with 19 samples.

Results

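*Rora* and *Rorb*, which encode retinoic acid receptor-related orphan receptors, and *Ncor1*, *Hdac3* and *Tbl1xr1*, which encode subunits of the NCoR corepressor complex, were followed in the E13.5 mouse cortex. These were 5 of the 51912 genes counted, and all 5 were found in each of the 19 libraries. *Rora* and *Ncor1* had been chosen by their lower counts in the *Ino80* mutants, so their comparisons with ctrl are given as a description without a test. *Rorb*, *Hdac3* and *Tbl1xr1* were taken in as relatives and partners of those genes, with earlier results of these data known.

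ROR proteins bind single half-sites in DNA as monomers and mainly activate transcription. RORA is known for its part in the differentiation of cerebellar Purkinje cells and in the circadian clock, where it competes with the REV-ERB repressors for the same elements. RORB is known in the cerebral cortex as a factor of layer 4 neurons and is also expressed in thalamus and retina. NCOR1 is a scaffold that is recruited by unliganded nuclear receptors and by REV-ERB proteins. It holds and activates the histone deacetylase HDAC3, while TBL1X, TBL1XR1 and GPS2 complete the core of the complex.

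The series compared ctrl embryos (n = 7) with embryos lacking the chromatin remodeler INO80 in the cortex, named cKO-E (*Ino80* fl/fl with *Emx1*Cre/+, n = 5), and with embryos that also lacked p53, named dKO-E (the same alleles together with *Trp53* fl/fl, n = 7). The labels call the ctrl embryos controls without giving their alleles. *Emx1*Cre recombines in cortical neural progenitor cells and acts on their neurons and astrocytes, so microglia, vessels, meninges and interneurons from the ventral forebrain keep both genes. All embryos were taken at E13.5, and each library was made by Click-seq from rRNA-depleted RNA of 1 embryo's cortex, with a molecular identifier on each cDNA. The ctrl group held 4 females and 3 males, the cKO-E group 4 females and 1 male, and the dKO-E group 2 females and 5 males. The ctrl embryos came from 4 litters, the cKO-E embryos from 5 and the dKO-E embryos from 2. Sequencing batch 1 held 4 ctrl, 3 cKO-E and 4 dKO-E libraries, batch 2 held 3, 2 and 2, and batch 3 held 1 dKO-E library.

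Between 820915 and 8095810 counts fell on genes per library, with a median of 2952788. Values are CPM, counts scaled to library size with edgeR's TMM factors, and fold changes are log2FC, on the log2 scale. A difference from ctrl was called at a false discovery rate (FDR) of 0.001 and one between the mutants at 0.05, with edgeR's quasi-likelihood test and Benjamini-Hochberg adjustment over all tested genes. In cKO-E against ctrl, 1.06% of 11660 tested genes were upregulated and 2.32% were downregulated. In dKO-E against ctrl, 0.246% of 11381 tested genes were upregulated and 2.34% were downregulated. In dKO-E against cKO-E, 5.59% of 11746 tested genes were higher and 9.42% were lower. Scaling to total counts in place of TMM changed the split of higher to lower calls from 124 and 270 to 160 and 198 in cKO-E, from 28 and 266 to 80 and 118 in dKO-E, and from 657 and 1106 to 1064 and 942 between the mutants. *Ino80* counts, which are summed over the whole gene and do not single out the floxed exons, cannot check the deletion. They were 122 ± 8.73 CPM in ctrl, 167 ± 14.8 in cKO-E and 187 ± 13.8 in dKO-E (SD over 7, 5 and 7 libraries). *Trp53* was at 43.9 ± 5.21 CPM in ctrl, 39.5 ± 4.68 in cKO-E and 34.8 ± 4.96 in dKO-E (SD over 7, 5 and 7 libraries). Its log2FC in dKO-E was -0.36 (SE 0.10, adjusted p = 0.0196, edgeR), which was not called. The markers of apical progenitors, which are not confined to the cortex and so cannot check the cortical label, summed over 8 genes to 954 to 1230 CPM in all 19 libraries. *Sox2*, one of them, was at 0 counts in every library. *Sox2*, and the neuronal genes *Tubb3* and *Neurod1*, which were also at 0, each lie wholly inside another annotated gene on the same strand.

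*Rora* (ENSMUSG00000032238.17) spans 734461 bases of chromosome 9 on GRCm38, from 68653786 to 69388246 on the plus strand. Its expression in ctrl had a lowest value of 352 CPM, a median of 387 and a highest of 435. In the 5 cKO-E libraries A to E it was 164, 204, 191, 190 and 221 CPM. The dKO-E libraries ran from 172 CPM through a median of 206 to 226. No mutant library reached the lowest ctrl library, and the cKO-E and dKO-E libraries lay over the same range. Full separation below ctrl was found for 5.56% of tested genes in cKO-E and for 3.22% in dKO-E. The means were 386 ± 29.9 CPM in ctrl, 194 ± 21.1 in cKO-E and 199 ± 21.5 in dKO-E (SD over 7, 5 and 7 libraries). Relative to ctrl, *Rora* had a log2FC of -0.99 (SE 0.08) in cKO-E and of -0.96 (SE 0.07) in dKO-E, or 0.505 and 0.513 of the ctrl level. Because both comparisons use the same ctrl libraries, these values are not independent of each other. As the RNA came from whole tissue, fewer cells of a type and less RNA per cell cannot be told apart.

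The direct comparison of the mutants was not itself used but is not independent, because both mutant groups entered the choice of *Rora*. Its log2FC in dKO-E against cKO-E was 0.03 (SE 0.08, adjusted p = 0.86, edgeR), with a 95% confidence interval of -0.14 to 0.21, that is from 0.905 to 1.15 times the cKO-E level. Full separation between the mutants was found above for 2.43% and below for 4.66% of tested genes.

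The lower level of *Rora* was seen within sequencing batches and within litters. In batch 1 the mean was 365 CPM in ctrl, 186 in cKO-E and 195 in dKO-E, and in batch 2 it was 412, 206 and 203. Litter 4 held a ctrl embryo at 367 CPM and a cKO-E embryo at 204. In litter 5, the ctrl embryos were at 387 and 435 CPM and the cKO-E embryo was at 191. In litter 7, both ctrl embryos were at 401 CPM and the cKO-E embryo was at 221. Litter 1 held ctrl embryos at 352 and 355 CPM and dKO-E embryos at 172, 206 and 226. In each of these 4 litters, every mutant embryo was below every ctrl embryo. Because no mutant library reached the lowest ctrl library, the order within batches and litters was fixed in advance and adds no support.

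**Figure D1:**
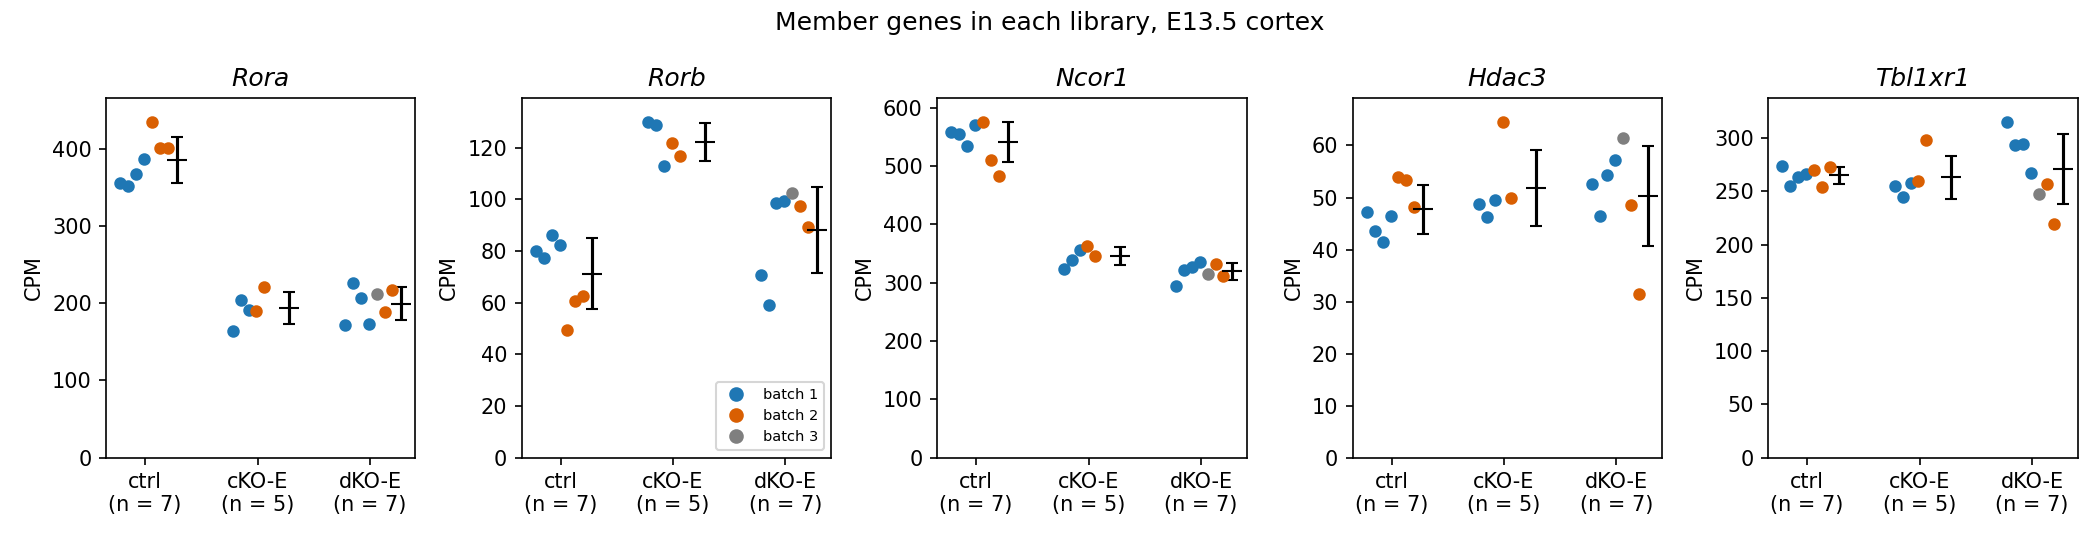
Expression of the 5 genes in CPM (vertical axes, from 0) in each library of ctrl, cKO-E and dKO-E, colored by sequencing batch, with the group mean and SD as a bar. *Rora* and *Ncor1* are lower in every mutant library than in every ctrl library, *Rorb* is highest in cKO-E, and the groups overlap for *Hdac3* and *Tbl1xr1*.

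*Rorb* (ENSMUSG00000036192.15, chromosome 19 from 18930605 to 19111196, minus strand) moved the opposite way and was significantly upregulated in cKO-E. In ctrl its lowest value was 49.3 CPM, its median 77.3 and its highest 86.1. The cKO-E libraries A to E were at 130, 129, 113, 122 and 117 CPM, all above ctrl, as was the case for 3.21% of tested genes. In dKO-E the lowest library was at 59.2 CPM, the median was 97.4 and the highest was 103. Here 5 of 7 libraries were above every ctrl library, and the remaining libraries, A and B, fell inside the ctrl range. Full separation above ctrl was found for 1.21% of tested genes in dKO-E. The means were 71.3 ± 13.7 CPM in ctrl, 122 ± 7.44 in cKO-E and 88.2 ± 16.7 in dKO-E (SD over 7, 5 and 7 libraries). In cKO-E the log2FC was 0.75 (SE 0.11, adjusted p = 0.000114, edgeR), 1.68 times the ctrl level with a 95% confidence interval of 1.44 to 1.96. In dKO-E it was 0.26 (SE 0.13, adjusted p = 0.19, edgeR), which was not called, with an interval of 0.992 to 1.44 times the ctrl level. *Rorb* was significantly lower in dKO-E relative to cKO-E, with a log2FC of -0.48 (SE 0.11, adjusted p = 0.00687, edgeR) and every dKO-E library below every cKO-E library. The order of levels was thus cKO-E above both other groups, while ctrl and dKO-E overlapped.

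The ctrl level of *Rorb* differed between sequencing batches. It was 77.3 to 86.1 CPM in the 4 ctrl libraries of batch 1 and 49.3 to 62.7 CPM in the 3 of batch 2. In cKO-E the log2FC was 0.60 (SE 0.08, adjusted p = 0.00016, edgeR) in batch 1 alone and 1.03 (SE 0.13, adjusted p = 0.000888) in batch 2 alone. In dKO-E it was 0.01 (SE 0.14, adjusted p = 0.963, edgeR) in batch 1 alone and 0.70 (SE 0.14, adjusted p = 0.0121) in batch 2 alone. For dKO-E, the pooled value therefore does not describe batch 1. Litter and batch were partly entangled in this group, since dKO-E A, B and C came from litter 1 and the other 4 libraries from litter 2. Library D of litter 2 was in batch 1 with A, B and C, at 99.5 CPM, while E, F and G were in batches 2 and 3. Litter 1 dKO-E embryos were at 70.7, 59.2 and 98.5 CPM beside ctrl litter mates at 80.2 and 77.3 CPM. The litter 2 embryos were at 89.2 to 103 CPM and had no ctrl litter mate. In the litters shared with cKO-E, every cKO-E embryo was above its ctrl litter mates, with 129 against 86.1 CPM in litter 4, 113 against 82.4 and 49.3 in litter 5, and 117 against 60.8 and 62.7 in litter 7. The direct comparison of dKO-E with cKO-E gave -0.58 (SE 0.16, adjusted p = 0.0374, edgeR) in batch 1 alone and -0.33 (SE 0.13, adjusted p = 0.277) in batch 2 alone. With litter as a block, *Rorb* in cKO-E kept a log2FC of 0.74 (SE 0.12) but missed the threshold (adjusted p = 0.00103, edgeR), and in dKO-E it was -0.04 (SE 0.18, adjusted p = 0.936).

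Some cell type markers were, like *Rorb*, highest in cKO-E, while others were not. The summed level of 5 Cajal-Retzius neuron markers was 764 to 882 CPM in cKO-E, above 475 to 622 in ctrl and 408 to 590 in dKO-E, and *Reln* and *Trp73* among them were upregulated in cKO-E. The summed level of 10 microglial markers was 29.2 to 38.5 CPM in cKO-E, against 5.97 to 17.0 in ctrl and 5.89 to 10.5 in dKO-E, and *Csf1r* and *Mpeg1* were upregulated. Ganglionic eminence and interneuron markers (8 genes) summed to 65.2 to 120 CPM in cKO-E, 9.67 to 84.1 in ctrl and 29.2 to 70.2 in dKO-E, and 0 of their 4 tested genes were called in cKO-E by edgeR (4 at an unadjusted p under 0.05, 1 called by the likelihood-ratio test and 0 by DESeq2). Excitatory neuron markers (8 genes, with *Neurod1* and *Tubb3* at 0) summed to 1332 to 2297 CPM in ctrl, 1684 to 2220 in cKO-E and 1149 to 1793 in dKO-E. The 3 ctrl libraries of batch 2, in which *Rorb* was lowest, had neuron sums of 1332, 1460 and 1550 CPM, below the 1924 to 2297 of the 4 ctrl libraries of batch 1. The dKO-E library with the lowest *Rorb*, B, also had the lowest neuron sum, 1149 CPM. Thalamus markers (6 genes, *Gbx2* at 0) ran from 109 to 149 CPM in cKO-E, 132 to 191 in ctrl and 108 to 211 in dKO-E. Mesenchyme and meninges markers (6 genes, of which 0 passed the filter for testing) summed to 1.24 to 7.47 CPM in cKO-E, and in ctrl and dKO-E the medians were 4.14 and 14.1 CPM. The highest sums were 65.8 CPM in ctrl F and 67.3 CPM in dKO-E B, the libraries with the lowest *Rorb* of their groups, at 49.3 and 59.2 CPM. The next highest sums in dKO-E, 45.7 CPM in C and 34.5 CPM in E, came with high *Rorb*, at 98.5 and 103 CPM. Without ctrl F and dKO-E B, a choice made after the marker sums were seen, *Rorb* in dKO-E had a log2FC of 0.29 (SE 0.10, adjusted p = 0.0551, edgeR) and again was not called. Intermediate progenitor markers (5 genes) summed to 371 to 453 CPM in ctrl, 294 to 386 in cKO-E and 298 to 447 in dKO-E. Their median log2FC in cKO-E was -0.32, and edgeR called 0 of the 5 (3 at an unadjusted p under 0.05, 1 called by the likelihood-ratio test and 0 by DESeq2). The 7 tested apical progenitor markers had a median log2FC of -0.34 in cKO-E, where *Fabp7* alone was called and was higher. The part of these cells in the level of *Rorb* and of the other genes described here was not tested.

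Levels of different genes can be compared only per length. Per kb of annotated exon, *Rora* was at 29.5 ± 2.28 CPM in ctrl (SD, n = 7), and *Rorb* at 6.43 ± 1.24, with *Rora* above *Rorb* in every library. In cKO-E, *Rora* at 14.8 ± 1.61 CPM per kb of exon (SD, n = 5) remained above *Rorb* at 11.03 ± 0.672 in every library, and in dKO-E the values were 15.3 ± 1.65 and 7.96 ± 1.51 (SD, n = 7). Per kb of gene span the order depended on the group. *Rora* was above *Rorb* in ctrl, at 0.525 ± 0.0406 against 0.395 ± 0.0759 CPM per kb of span (SD, n = 7), and below it in cKO-E, at 0.264 ± 0.0287 against 0.676 ± 0.0412 (SD, n = 5). Whether introns were counted is not given in the sources used here, so both scales are shown.

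The ratio of *Rora* to *Rorb* counts within a library does not depend on normalization. In ctrl it was lowest at 4.26, with a median of 4.70 and a highest value of 8.83. In cKO-E libraries A to E it was 1.26, 1.58, 1.69, 1.56 and 1.89, and in dKO-E it ran from 1.74 through a median of 2.10 to 3.82. All mutant libraries were below all ctrl libraries. This separation is not independent of the choice of *Rora* by its lower counts in the mutants. In batch 2 the ctrl ratios were 6.39, 6.61 and 8.83, above the 4.26 to 4.70 of batch 1. Those libraries had both lower *Rorb*, as given above, and higher *Rora*, at 401 to 435 CPM against 352 to 387 in batch 1.

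**Figure D2:**
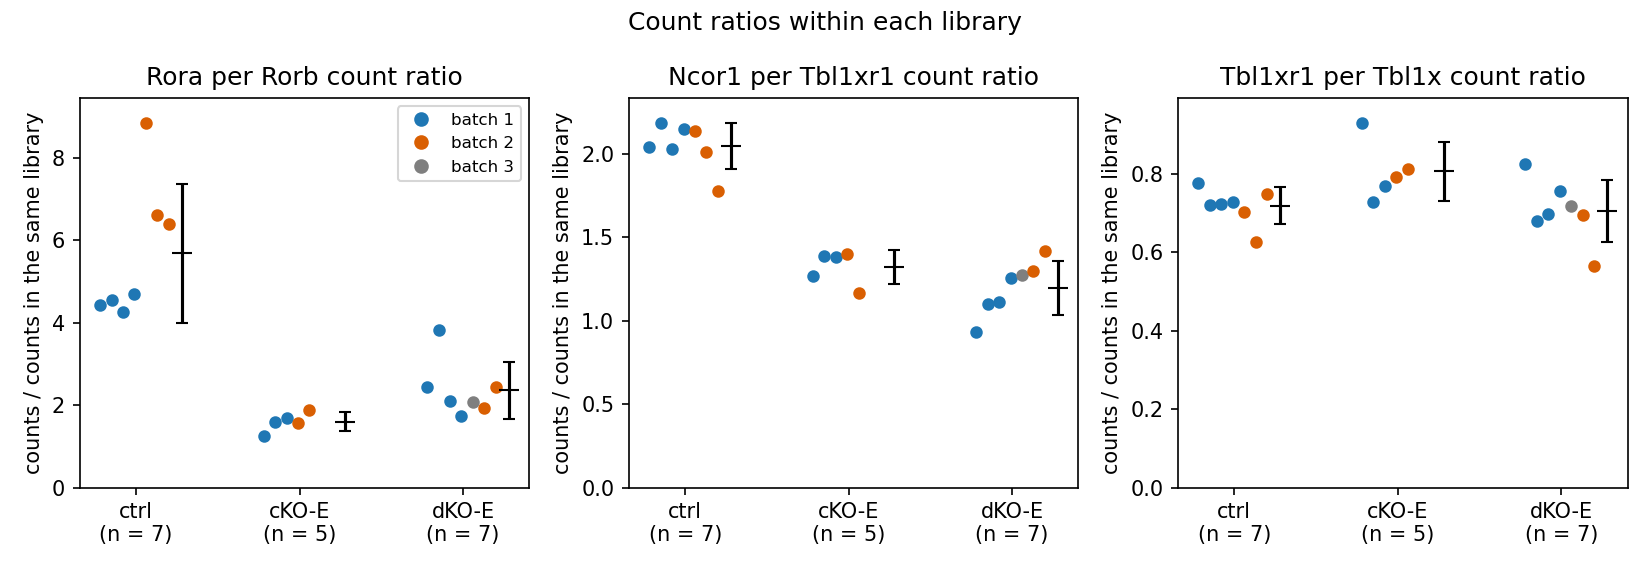
Ratio of the counts of gene pairs in the same library (vertical axes, from 0), for *Rora* per *Rorb*, *Ncor1* per *Tbl1xr1* and *Tbl1xr1* per *Tbl1x*, colored by sequencing batch, with group mean and SD as a bar. The first 2 ratios are lower in every mutant library than in every ctrl library, while the third overlaps between all groups. *Rora* and *Ncor1* were chosen by their lower counts in the mutants.

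*Ncor1* (ENSMUSG00000018501.17) lies on chromosome 11 from 62316426 to 62458541 on the minus strand. The ctrl libraries ran from 484 CPM through a median of 556 to 577. The cKO-E libraries A to E were at 324, 339, 356, 363 and 346 CPM, and the dKO-E libraries ran from 294 through a median of 322 to 335 CPM. Every mutant library was below every ctrl library, and the mutants' ranges overlapped at their edges. The means were 541 ± 33.9 CPM in ctrl, 346 ± 15.0 in cKO-E and 320 ± 14.3 in dKO-E (SD over 7, 5 and 7 libraries). Against ctrl this was a log2FC of -0.65 (SE 0.06) for cKO-E and of -0.77 (SE 0.05) for dKO-E, or 0.637 and 0.587 of the ctrl level. The direct comparison was not itself used to choose *Ncor1*, but both mutant groups entered the choice, so it is not independent. It gave -0.11 in dKO-E against cKO-E (SE 0.06, adjusted p = 0.211, edgeR), with a 95% confidence interval of -0.23 to 0.01. In this comparison, 4 of 7 dKO-E libraries lay below every cKO-E library.

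The lower level of *Ncor1* was likewise present within batches, with means of 555, 340 and 320 CPM in ctrl, cKO-E and dKO-E of batch 1 and of 524, 355 and 322 CPM in batch 2. Within litters, the cKO-E embryo was at 0.634 of its ctrl litter mate in litter 4, at 0.621 in litter 5 and at 0.697 in litter 7. The dKO-E embryos of litter 1 averaged 0.565 of theirs. Because every mutant library was below every ctrl library, the order within batches and litters was fixed in advance and adds no support. *Ncor1* overlaps *Ttc19* on the opposite strand over 12026 bases. *Ttc19* had 3887 counts in all libraries together against 23670 for *Ncor1*, and whether counting used strand is not given in the sources used here. *Rora* overlaps the antisense gene *Gm15511*, which had 12 counts against 15209 for *Rora*.

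Because *Rora* and *Ncor1* were the members with lower levels in both mutants, their promoter windows are shown. RefSeq (GRCm38.p6) gives 1 start for *Rora* and 2 for *Ncor1*, and 6 windows of 300 bases, from 250 before to 50 after the start, for the 4 members searched (*Rora*, *Rorb*, *Ncor1* and *Tbl1xr1*). The 250 bases before the start read 5′ to 3′ on the gene's own strand, with matches to the core of YY1, a zinc finger factor that the study relates to INO80, in capitals. They cover chr9:68653536-68653785 (plus strand) for *Rora*, and chr11:62457333-62457582 and chr11:62438516-62438765 (minus strand) for *Ncor1*.
Rora: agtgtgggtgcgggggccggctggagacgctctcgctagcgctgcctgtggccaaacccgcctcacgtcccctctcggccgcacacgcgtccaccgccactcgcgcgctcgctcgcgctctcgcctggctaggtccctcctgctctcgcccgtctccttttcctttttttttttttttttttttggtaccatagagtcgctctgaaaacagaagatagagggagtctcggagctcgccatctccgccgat
Ncor1, upstream start: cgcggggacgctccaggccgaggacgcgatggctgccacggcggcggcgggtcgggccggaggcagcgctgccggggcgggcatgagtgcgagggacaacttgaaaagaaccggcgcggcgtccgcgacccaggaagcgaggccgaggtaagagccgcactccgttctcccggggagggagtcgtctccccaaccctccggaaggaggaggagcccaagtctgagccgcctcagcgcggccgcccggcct
Ncor1, downstream start: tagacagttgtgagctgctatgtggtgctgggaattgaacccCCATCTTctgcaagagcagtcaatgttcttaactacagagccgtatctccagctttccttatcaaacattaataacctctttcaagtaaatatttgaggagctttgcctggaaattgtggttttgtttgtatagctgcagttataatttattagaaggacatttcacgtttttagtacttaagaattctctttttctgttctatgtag
The YY1 core CCATNTT or its reverse complement AANATGG was found in 16.1% of all 32851 RefSeq windows of this length. It occurred before the start only at the downstream *Ncor1* start, from position -208 to -202, where 0 is the first transcribed base. Before the start it was found in 12.4% of all windows. Both printed *Ncor1* stretches lie inside the span of the gene given above. Further matches lay just after the starts, again with the core in capitals.
Rora, position 18 to 24: aaaaaAACATGGagtca
Ncor1, upstream start, position 25 to 31: gaggcAAGATGGcggct
Ncor1, downstream start, position 13 to 19: ctagaAACATGGttgtt
The *Rorb* and *Tbl1xr1* windows held 0 matches to these letters. The ROR response element, an A/T-rich stretch before a nuclear receptor half-site, was in either strand of 0 of the 6 windows and in 0.70% of all windows. The GC content before the start was 61.2% for *Rora*, 73.6% at the upstream and 36.8% at the downstream start of *Ncor1*, 66.0% and 39.2% at the *Rorb* starts and 76.0% for *Tbl1xr1*, beside a median of 52.4% over all windows. These matches are letters in a window, and binding was not measured here.

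*Hdac3* (ENSMUSG00000024454.15, chromosome 18 from 37935844 to 37955016, minus strand), the catalytic subunit, showed no called difference. Its ctrl values ran from 41.4 CPM through a median of 47.2 to 53.9. The cKO-E libraries A to E were at 48.8, 46.2, 49.5, 64.6 and 49.9 CPM, and the dKO-E libraries ran from 31.5 through 52.7 to 61.4 CPM. The groups overlapped, and both extreme libraries were shallow, since the 64.6 CPM of cKO-E D rested on 52 counts and the 31.5 CPM of dKO-E G on 29 counts. The log2FC was 0.09 in cKO-E (SE 0.09, adjusted p = 0.535, edgeR) and 0.11 in dKO-E (SE 0.10, adjusted p = 0.509). The 95% confidence intervals allow 0.936 to 1.22 times the ctrl level in cKO-E and 0.934 to 1.24 times in dKO-E. Between the mutants, the log2FC was 0.02 (SE 0.11, adjusted p = 0.935, edgeR).

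*Tbl1xr1* (ENSMUSG00000027630.13, chromosome 3 from 22076652 to 22216594, plus strand), which encodes a WD40 subunit that serves in exchanging corepressors for coactivators, was the steadiest of the members in ctrl. There it ran from 254 CPM through a median of 266 to 273. The cKO-E libraries A to E were at 255, 244, 258, 260 and 298 CPM, and the dKO-E libraries ran from 220 through 267 to 315 CPM. The ctrl range lay inside the ranges of both mutants. Log2FC values were -0.01 in cKO-E (SE 0.06, adjusted p = 0.952, edgeR), 0.03 in dKO-E (SE 0.07, adjusted p = 0.804) and 0.05 between the mutants (SE 0.08, adjusted p = 0.751). The 95% confidence intervals were 0.915 to 1.08 times the ctrl level in cKO-E and 0.929 to 1.12 times in dKO-E. Among dKO-E embryos, the 3 of litter 1 had 293 to 315 CPM and the 4 of litter 2 had 220 to 267 CPM.

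The other NCoR subunits showed no called difference from ctrl. *Hdac3*, *Tbl1xr1*, *Tbl1x*, *Gps2* and *Coro2a* were all tested, and 0 of these 5 were called in cKO-E or in dKO-E by edgeR, its likelihood-ratio test or DESeq2. At an unadjusted p under 0.05 (edgeR) there were 2 in cKO-E, *Tbl1x* (log2FC -0.17) and *Coro2a* (0.57), and 0 in dKO-E. The 5 genes had a median log2FC of -0.009 in cKO-E and of 0.031 in dKO-E, beside 0.02 and 0.01 over all tested genes. The ratio of *Ncor1* to *Tbl1xr1* counts, which does not depend on scaling, was 1.77 to 2.18 in ctrl, 1.16 to 1.40 in cKO-E and 0.932 to 1.42 in dKO-E, so that both mutants lay below ctrl and overlapped each other. This separation is not independent of the choice of *Ncor1* by its lower counts in the mutants. *Tbl1x*, the X-linked relative of *Tbl1xr1*, was at 370 ± 18.9 CPM in ctrl, 328 ± 33.1 in cKO-E and 385 ± 33.0 in dKO-E (SD over 7, 5 and 7 libraries). It was called higher in dKO-E relative to cKO-E, with a log2FC of 0.23 (SE 0.08, adjusted p = 0.0457, edgeR). This call was lost without any 1 of cKO-E A, B, C or D or dKO-E A, B, C, F or G, with adjusted p up to 0.153, and it held with sex as a covariate (log2FC 0.27, SE 0.08, adjusted p = 0.028, edgeR). It was not called in batch 1 alone (adjusted p = 0.0585, edgeR) or in batch 2 alone (adjusted p = 0.809). *Gps2*, which encodes a small inhibitory subunit, was at 26.5 ± 4.61, 23.5 ± 3.64 and 25.7 ± 4.12 CPM (SD) in ctrl, cKO-E and dKO-E. *Coro2a*, a coronin found with the complex, was at 5.19 ± 1.42, 7.73 ± 2.65 and 4.90 ± 1.35 CPM (SD) in the same order.

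Per kb of exon, the order in ctrl was *Tbl1x* (52.5 ± 2.68 CPM per kb, SD, n = 7), *Ncor1* (42.3 ± 2.65) and *Tbl1xr1* (29.8 ± 0.905), followed by *Gps2*, *Hdac3* and *Coro2a*. Among these neighbors, *Gps2* and *Hdac3* overlapped between libraries. In dKO-E, *Ncor1* was at 24.9 ± 1.11 CPM per kb of exon (SD, n = 7) and came after *Tbl1xr1* (30.4 ± 3.69), with overlap between them. In cKO-E, *Ncor1* at 27.0 ± 1.17 CPM per kb of exon (SD, n = 5) likewise came after *Tbl1xr1* (29.5 ± 2.29) and overlapped it. Per kb of gene span *Ncor1* came after *Gps2* in ctrl, with every library apart from its neighbors, and in the mutants after *Gps2* and *Hdac3* (in dKO-E also after *Tbl1x*), where it overlapped the genes next to it.

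**Figure D3:**
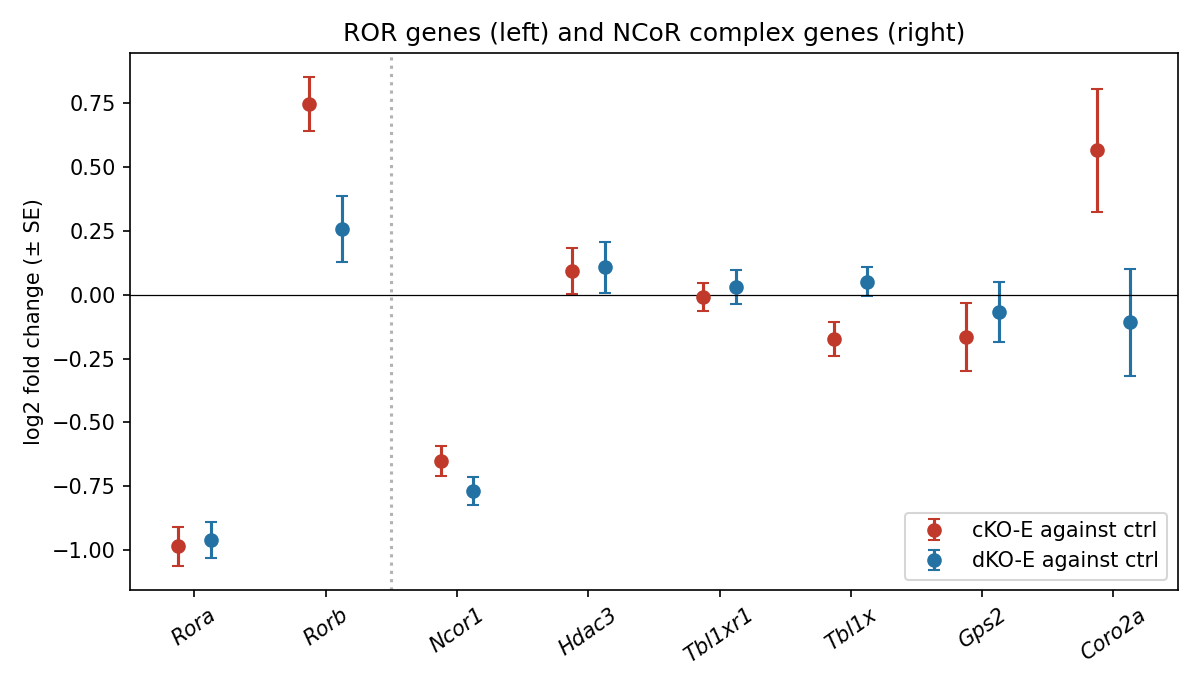
Log2FC against ctrl (vertical axis) with its SE for 2 ROR genes and 6 genes of the NCoR complex, in cKO-E and dKO-E. *Rora* and *Ncor1*, selected for this, lie near -0.99 and -0.65 in cKO-E, *Rorb* lies at 0.75 in cKO-E and 0.26 in dKO-E, and *Hdac3*, *Tbl1xr1* and *Gps2* lie within 0.17 of 0. *Coro2a* lies at 0.57 in cKO-E and -0.11 in dKO-E, and *Tbl1x* at -0.17 and 0.05, without a call.

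Other corepressors of nuclear receptors had no called difference from ctrl. Of 13 listed genes, 11 were tested, and edgeR called 0 in cKO-E and 0 in dKO-E, with median log2FC values of 0.04 and 0.02. At an unadjusted p under 0.05 there were 4 and 3, the likelihood-ratio test called 1 (*Rcor3*) and 0, and DESeq2 called 2 (*Nsd1* and *Rcor3*) and 2 (*Lcorl* and *Nsd1*). Between the mutants, edgeR called 2 of the 11 higher and 1 lower in dKO-E, beside 5.59% and 9.42% of all tested genes. *Lcorl*, a ligand-dependent corepressor relative, was lower in dKO-E (314.6 ± 30.4 CPM, SD, n = 7) than in cKO-E (386 ± 26.2, SD, n = 5), with a log2FC of -0.30 (SE 0.07, adjusted p = 0.0077, edgeR). *Rcor2*, a CoREST subunit, was higher in dKO-E by 0.32 on the log2 scale (SE 0.08, adjusted p = 0.00934), with every dKO-E library above every cKO-E library. *Sin3a*, the scaffold of another deacetylase complex, was higher by 0.26 (SE 0.08, adjusted p = 0.0347, edgeR). That call was lost without any 1 of cKO-E B, C or E or dKO-E B, D, E or F, with adjusted p up to 0.121. The 10 other histone deacetylases were all tested and 0 were called in any comparison by edgeR, its likelihood-ratio test or DESeq2, with 3 genes in cKO-E, 2 in dKO-E and 1 between the mutants at an unadjusted p under 0.05. The most abundant were *Hdac4* (257 ± 14.02 CPM in ctrl, 298 ± 18.6 in cKO-E and 289 ± 31.6 in dKO-E, SD), *Hdac2* (225 ± 20.1, 239 ± 13.0 and 227 ± 15.6) and *Hdac9* (218 ± 13.4, 224 ± 18.1 and 217 ± 14.5). *Hdac4* had the lowest adjusted p among these 3 genes, 0.0179.

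Coactivators, the counterparts of NCoR at nuclear receptors, had called differences from ctrl only in the lower direction. All 15 listed genes were tested, and edgeR called 1 lower in cKO-E and 3 lower in dKO-E, beside 2.32% and 2.34% of all tested genes. The likelihood-ratio test called the same number in each, and DESeq2 called 2 in cKO-E (*Ep300* and *Ncoa2*) and 3 in dKO-E. At an unadjusted p under 0.05 (edgeR) there were 6 in cKO-E and 7 in dKO-E. The median log2FC of the list was -0.14 in cKO-E, with -0.06 in dKO-E, and 0.02 and 0.01 over all tested genes. Of the 15 genes, 13 had a log2FC below 0 in cKO-E and 10 in dKO-E. *Ep300*, the histone acetyltransferase p300, was at 222 ± 10.8 CPM in ctrl, 167 ± 9.48 in cKO-E and 176 ± 11.9 in dKO-E (SD over 7, 5 and 7 libraries). Every mutant library was below every ctrl library. Its log2FC was -0.40 (SE 0.06, adjusted p = 8.53e-05, edgeR) in cKO-E and -0.34 (SE 0.05, adjusted p = 0.000214) in dKO-E, and without dKO-E F the adjusted p in dKO-E was 0.00105. *Ncoa1* and *Ncoa2*, the p160 coactivators SRC-1 and TIF2, were downregulated in dKO-E. *Ncoa1* was at 369 ± 25.1 CPM in ctrl, 318 ± 29.3 in cKO-E and 259 ± 24.1 in dKO-E (SD over 7, 5 and 7 libraries), a log2FC of -0.52 in dKO-E (SE 0.06, adjusted p = 1.49e-05, edgeR). It was also lower in dKO-E relative to cKO-E, by a log2FC of -0.29 (SE 0.07, adjusted p = 0.00934). *Ncoa2* was at 434 ± 23.7 CPM in ctrl, 361 ± 28.1 in cKO-E and 334 ± 20.9 in dKO-E (SD), with -0.38 in dKO-E (SE 0.05, adjusted p = 7.29e-05, edgeR). In cKO-E its log2FC was -0.27 (SE 0.06, adjusted p = 0.00584), which edgeR did not call and DESeq2 did, with no overlap between libraries. Scaled to total counts, the calls of *Ncoa2* and *Ep300* in dKO-E were lost, both still below 0. *Kat2a*, which encodes the acetyltransferase GCN5, was higher in dKO-E relative to cKO-E by 0.43 on the log2 scale (SE 0.12, adjusted p = 0.0174, edgeR), and without cKO-E B the adjusted p was 0.0722.

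Of 43 other nuclear receptors, 21 were tested against ctrl. In cKO-E, edgeR called *Nr3c2* higher and *Nr4a2* lower, beside 1.06% and 2.32% of all tested genes. At an unadjusted p under 0.05 there were 8 genes. The likelihood-ratio test of edgeR and DESeq2 each called 3, *Nr3c2*, *Nr4a2* and *Nr2e1*. In dKO-E edgeR, its likelihood-ratio test and DESeq2 called 0 (7 at an unadjusted p under 0.05). *Nr3c2*, the mineralocorticoid receptor, was at 6.18 ± 2.498 CPM in ctrl, 17.5 ± 5.06 in cKO-E and 4.54 ± 2.32 in dKO-E (SD over 7, 5 and 7 libraries). Its log2FC was 1.47 in cKO-E (SE 0.24, adjusted p = 0.000437, edgeR), a call lost without any 1 of ctrl A, C or I or cKO-E A, B, C or D, with adjusted p up to 0.00238. *Nr4a2* (NURR1), an orphan receptor of the subplate and of dopamine neurons, was at 42.0 ± 7.46 CPM in ctrl, 20.9 ± 5.16 in cKO-E and 48.4 ± 11.1 in dKO-E (SD). It was downregulated in cKO-E, with a log2FC of -0.96 (SE 0.14, adjusted p = 0.000201, edgeR), and the adjusted p was 0.00147 without cKO-E B and 0.00114 without cKO-E C. *Nr2e1* (TLX), a receptor of neural progenitors, was at 87.0 ± 11.6 CPM in ctrl, 59.3 ± 8.55 in cKO-E and 82.6 ± 17.9 in dKO-E (SD over 7, 5 and 7 libraries). Every cKO-E library was below every ctrl library, with a log2FC of -0.55 (SE 0.10, adjusted p = 0.00142, edgeR). Between the mutants 22 were tested, of which 2 were higher and 4 lower in dKO-E, beside 5.59% and 9.42% of all tested genes. *Nr4a2* was higher in dKO-E by 1.21 on the log2 scale (SE 0.17, adjusted p = 5.53e-05, edgeR), as was *Nr2e1* by 0.52 (SE 0.13, adjusted p = 0.0134, or 0.052 without cKO-E A). *Nr3c2* was lower, with a log2FC of -1.82 (SE 0.25, adjusted p = 6.01e-05, edgeR). *Nr2f2* (COUP-TFII), known in caudal cortex and interneurons, had -1.55 (SE 0.30, adjusted p = 0.00139), and in cKO-E it varied from 18.7 to 101 CPM. *Nr4a3* had -0.94 (SE 0.17, adjusted p = 0.00069, edgeR) and *Thra*, the thyroid hormone receptor alpha, had -0.38 (SE 0.09, adjusted p = 0.00551).

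**Figure D4:**
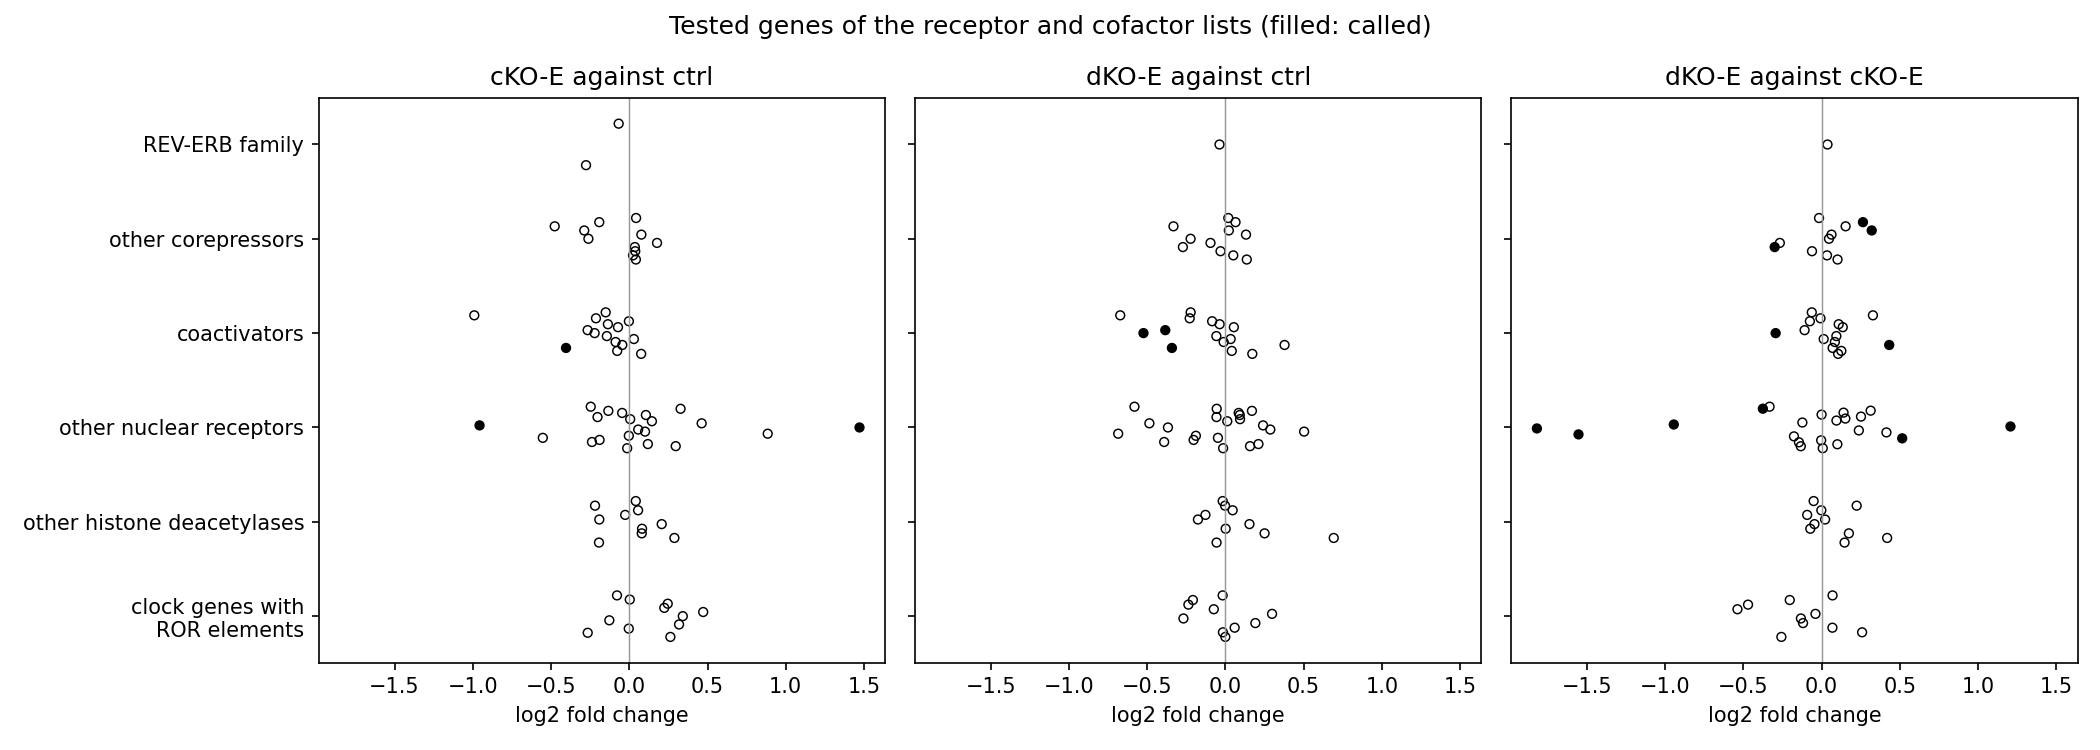
Log2FC (horizontal axes) of every tested gene of 6 receptor and cofactor lists in the 3 comparisons, with called genes filled. The coactivators called against ctrl lie below 0, and the other nuclear receptors spread from -1.82 to 1.21 between the mutants.

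Clock genes, of which only some are known to respond to ROR receptors elsewhere, were described as a list, without a test of the list. Of 14 listed clock genes, 11 were tested in cKO-E and 10 in dKO-E, with medians of 0.22 and -0.02 on the log2 scale. EdgeR, its likelihood-ratio test and DESeq2 called 0 in each. At an unadjusted p under 0.05 (edgeR) there were 3 in cKO-E and 1 in dKO-E. Those in cKO-E were *Cry1*, *Nfil3* and *Arntl*, with log2FC values of 0.32, 0.47 and 0.26. The 1 in dKO-E was *Cry2*, at -0.27. *Clock* was at 127 ± 5.70 CPM in ctrl, 128 ± 14.8 in cKO-E and 134 ± 12.1 in dKO-E (SD), *Tef* at 33.8 ± 3.38, 31.6 ± 4.62 and 34.4 ± 4.96, and *Cry1* at 27.8 ± 4.24, 35.3 ± 3.83 and 32.1 ± 2.48. The lowest adjusted p of these 3 genes was 0.0601, for *Cry1*. The REV-ERB genes, which encode the opposing repressors, were low, with *Nr1d2* at 13.2 ± 2.92, 12.9 ± 2.58 and 13.4 ± 2.58 CPM and *Nr1d1* at 3.78 ± 1.54, 3.23 ± 1.39 and 2.68 ± 1.59 (SD) in the same order.

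Genes whose pattern over the 19 libraries was among the 5 most like that of a member were found by Pearson's r of log2 CPM among 12048 genes. For *Rora* they included *Pkd2* (polycystin-2, r = 0.96), *Arhgap19* (a GTPase-activating protein, r = 0.95), *Metap1d* (a mitochondrial methionine aminopeptidase, r = 0.95) and *Htt* (huntingtin, r = 0.95). For *Ncor1* they included *Tet2* (a dioxygenase of methylated DNA, r = 0.96), *Araf* (a RAF kinase, r = 0.96), *Zfp292* (a zinc finger protein, r = 0.96) and *Uba3* (a subunit of the NEDD8-activating enzyme, r = 0.96). These 8 genes had log2FC values below 0 in both mutants, and the libraries share the same group differences by which *Rora* and *Ncor1* were chosen. Once each library was set against its group mean, r fell to between 0.367 and 0.474 for those of *Rora* and to between 0.0948 and 0.567 for those of *Ncor1*. *Rora* and *Ncor1* themselves had r = 0.94 over libraries and r = 0.0867 over the deviations from group means.

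*Rorb* differed from them in this respect. Its nearest genes were *Gm35835* (r = 0.92), *Phf14* (a PHD finger protein, r = 0.92), *Syt16* (a synaptotagmin relative, r = 0.92), *Dlgap1* (a postsynaptic scaffold protein, r = 0.91) and *Cntn3* (a neuronal contactin, r = 0.91). Over deviations from group means, r was still 0.785 to 0.850. *Dlgap1* was at 161 ± 48.1 CPM in ctrl, 337 ± 42.4 in cKO-E and 188 ± 33.8 in dKO-E (SD over 7, 5 and 7 libraries). All these correlations describe the same libraries, which share depth and normalization.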

How the data were processed

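Neocortical RNA of 19 E13.5 mouse embryos was measured by RNA-seq. Per the labels and the study's methods, the authors depleted ribosomal RNA, made Click-seq libraries, trimmed reads with cutadapt 1.13, aligned them with STAR 2.5.2a to GRCm38, removed duplicates with UMI-tools 0.5.3 and counted reads per gene with HTSeq 0.6.1p1 (intersection-nonempty). The deposited values are raw counts for 51912 genes per library. The counted feature and the use of strand are not given in the sources used here. Symbols, positions and lengths came from GENCODE M21 (51719 identifiers found), promoter sequences from RefSeq.

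Groups follow the labels. The members and gene lists were chosen with earlier results of these data known. Genes were filtered by filterByExpr at its minimum count of 10, normalized by TMM and tested with the quasi-likelihood test of edgeR 4.0.16 in R 4.3.3, 1 fit per comparison without covariates, with Benjamini-Hochberg adjustment. The script was tested on simulated data. The SE is the log2 fold change over the square root of F. A count of 3 equals 0.37 to 3.73 CPM, for counting error only. Named genes are the members, *Ino80*, *Trp53*, called list genes, the 3 most abundant tested genes of lists without a call, and the 5 genes most like *Rora*, *Rorb* and *Ncor1* (prior count 2 in log2 CPM). The other NCoR subunits, *Rcor3*, *Nsd1*, *Arntl*, *Nfil3* and *Cry2* were described after their values were seen. Some genes that this rule names are not reported here. Rows naming no gene were left out. Of all reads tallied per library, those without a gene made up 4.96% to 12.5%, ambiguous ones 1.78% to 2.07% and those aligned to several places 14.9% to 20.9%. Alternatives included DESeq2 1.42.0, other scalings and filters, batch, sex, litter and letter terms, single batches and leaving out each library. Figures were drawn with matplotlib 3.10.9.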

Additional observations from a re-analysis of the deposited data

Results flagged for a closer look

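Each member was examined in each group for a library that stood apart from the rest, by Dixon's criterion at 95%, 15 groups in all, of which chance flags about 1 in 20. In cKO-E, *Hdac3* was at 64.6 CPM in library D, and its gap to the next library made up 0.796 of the group's range (critical value 0.71). This value rested on 52 counts. In cKO-E, *Tbl1xr1* was at 297.9 CPM in library E, on 877 counts, with a gap of 0.712 of the range, just past the same critical value. Neither gene was called in any comparison. Without cKO-E D, the log2 fold change of *Hdac3* in cKO-E was 0.038, and without cKO-E E that of *Tbl1xr1* was -0.061.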

How the results depend on the processing

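Alternatives were fits of the same comparisons with 1 choice changed. *Rorb* in cKO-E stayed called in all but 1 of them, the litter block (0.74, adjusted p = 0.00103, edgeR), and ranged from 0.69 to 0.80 with each library left out. *Rorb* in dKO-E against cKO-E was -0.33 and no longer called in batch 2 alone. In dKO-E against ctrl it was never called and reversed under the litter block (-0.035). Leaving out ctrl F and dKO-E B, chosen after the marker sums were seen, gave 0.29 (adjusted p = 0.0551). *Rora* in dKO-E was -0.82 under the litter block. *Ncor1* was -0.56 in cKO-E in batch 2 alone and -0.67 in dKO-E with total counts. Values near 0 changed sign. *Tbl1xr1* in cKO-E was 0.022 with total counts, 0.011 with upper-quartile factors, 0.012 under the litter block and 0.091 in batch 2 alone (-0.061 to 0.017 with each library left out). In batch 2 alone, *Hdac3* was -0.27 and *Tbl1xr1* -0.14 in dKO-E against ctrl, and against cKO-E *Rora* was -0.074, *Hdac3* -0.35 and *Tbl1xr1* -0.23. *Hdac3* against cKO-E was -0.015 with batch as a covariate (-0.013 to 0.074 with each library left out), and *Rora* ranged from -0.027 to 0.087 with each library left out. The Spearman correlation of *Rora* and *Ncor1* was 0.69, where Pearson's r was 0.94. The cause was not tested for any of these.

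Counts of higher and lower genes moved more. In cKO-E (124 and 270) they were 306 and 530 by the likelihood-ratio test, 214 and 498 by DESeq2, 245 and 414 with batch as a covariate, 71 and 127 with the litter block, 20 and 10 in batch 2 alone, 361 and 641 at an FDR of 0.01, 852 and 1152 at 0.05, and 267 higher with all genes of at least 1 count. With each library left out they were 71 to 135 and 164 to 266, the lowest without cKO-E C. They were 81 higher without ctrl A, and 170 and 167 lower without cKO-E A and B. In dKO-E (28 and 266) they were 117 and 498 by the likelihood-ratio test, 76 and 475 by DESeq2, 80 and 118 with total counts, 1 and 36 with the litter block, 4 and 83 in batch 1 alone, 2 and 12 in batch 2 alone, 177 and 603 at an FDR of 0.01, 620 and 1139 at 0.05, and 45 higher in 1 fit over all libraries. With each library left out they were 15 to 40 and 172 to 265, with 15 higher without ctrl A, 18 without each of ctrl B, ctrl D and dKO-E F, and 172 lower without dKO-E F. Between the mutants (657 and 1106) they were 25 and 280 in batch 2 alone and 45 and 323 at an FDR of 0.001, with 1064 higher with total counts and 1079 with sex as a covariate. With each library left out they were 346 to 710 and 789 to 1120, with 346 and 789 without cKO-E C. The litter block could not be fitted between the mutants, which share no litter.

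Among named genes of the lists, 0 calls reversed in direction. Against ctrl, the calls of all 3 genes in cKO-E and all 3 in dKO-E were lost with the litter block and in batch 2 alone, 2 and 2 of them in batch 1 alone, and 2 of the 3 in dKO-E with total counts. Of the 12 between the mutants, 10 were lost in batch 2 alone and 2 in batch 1 alone.

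The letters in the labels did not pair the embryos. Same-lettered deviations correlated above 0.1 in 1 of 4, 1 of 5 and 1 of 5 pairs. With the letter as a replicate block, calls were 132 and 209 in cKO-E, 1 and 36 in dKO-E, and 484 and 932 between the mutants, and *Rorb* in cKO-E was 0.61 (adjusted p = 0.000187, edgeR).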
